A study of Drosophila melanogaster with 6 samples.

Results

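The 9 SR and hnRNP splicing regulator genes described here were followed through introns and exons in 6 eCLIP libraries. The SR proteins were B52, SF2, SC35 and x16, tra2 is the SR-like member, and the hnRNP proteins were Hrb27C, Hrb87F, Hrb98DE and sqd. All 9 genes were found by their symbols among the 13372 genes with exon, mRNA or intron features in the files. They have 106 exon, 47 mRNA and 78 intron features, of 60268, 16569 and 32010 in the whole series, and no feature named isoforms of more than 1 gene. Feature values were summed per gene, with mRNA features counted as exonic.

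eCLIP sequences RNA that copurifies with a protein after UV light has tied protein and RNA together. Here the protein was Asterix (Gtsf1), a piRNA pathway factor of Drosophila, expressed from its endogenous promoter with a C-terminal GFP-FRT-Precission-V5-3xFLAG-P2A tag in OSS cells, a line of the ovarian somatic sheath. The groups were 2 crosslinked IP libraries (irradiated at 254 nm with 400 mJ, recovered by the FLAG tag), 2 crosslinked input libraries (lysate before recovery), 1 non-crosslinked IP library and 1 non-crosslinked input library. All groups came from OSS cells treated with RNase I and DNase in the lysate, the labels do not say whether the tagged line is 1 clone, and cells without the tag were not analysed here. Nothing states that the 2 libraries of a crosslinked group came from separate cultures. The p-values therefore measure the spread between these libraries, largely pooled over items, which may be technical.

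SR proteins carry RNA recognition motifs and a domain rich in arginine and serine. They bind enhancers, often in exons, and help the splicing machinery choose neighbouring splice sites. hnRNP A/B-type proteins coat nascent transcripts and often repress splice sites. Genes of both families commonly keep their own level in check through alternatively spliced or retained segments of their own transcripts, and introns of fly genes also house snoRNAs and scaRNAs, which are trimmed from the excised intron and guide the modification of rRNA and spliceosomal RNA. Spliced mRNA leaves no intron reads, so intron reads come from precursor, retained intron, excised intron or RNA encoded within it.

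Library totals ranged from 2619716 reads in the non-crosslinked IP to 15992638 in the first crosslinked input. Levels are counts scaled to the annotated total of the library (RPM), and 3 reads, the floor used here, equal 0.191 to 1.31 RPM. Exon and mRNA features held 4.90% and 4.98% of annotated reads in crosslinked IP, against 5.71% and 5.71% in crosslinked input. Intron features held 4.50% and 5.16% in crosslinked IP, against 3.28% and 3.34% in crosslinked input. All 6 ovarian somatic markers were detected in every library, with summed exonic levels of 167 to 189 RPM in crosslinked IP against 262 to 288 RPM in crosslinked input. The 8 germline markers summed to 22.5 to 22.6 exonic RPM in crosslinked IP against 33.2 to 37.0 in crosslinked input, most of it from spn-E and krimp, and vas had at most 3.4 exon and 3.62 intron reads in any library. The germline marker with the most reads was AGO3, nearly all in its introns, with 57.9 and 68.5 RPM in crosslinked IP against 25.4 and 24.04 RPM in crosslinked input (1.27 ± 0.14 on the log2 scale, adjusted p = 1.45e-06, edgeR). The 4 hemocyte markers summed to 11.2 to 12.8 exonic RPM in crosslinked IP against 12.5 to 14.8 RPM in crosslinked input. The part of other cells in the values below was not tested. Libraries are from bulk lysate, so fewer cells of a kind and less RNA per cell cannot be told apart.

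In crosslinked IP against crosslinked input, intron reads of tra2, Hrb27C, Hrb98DE and sqd rose and those of SC35 fell, while most exon sums did not pass the test. Of 7 members whose introns had a mean of at least 10 reads, 4 rose, 1 fell and 2 did not pass (edgeR quasi-likelihood test, Benjamini-Hochberg adjustment over all 8775 items, threshold 0.05). Across all genes, 52.7% of 1889 tested intron sums rose and 2.38% fell. The median log2 ratio was 0.53 over the 7 members and 0.64 over all tested intron sums. Of 9 exon sums, 1 rose, 1 fell and 7 did not pass, beside 5.85% higher and 26.3% lower among 5867 genes. The median exon ratio was 0.04 over the members and -0.25 over all. With so many genes called in the same direction, these counts are not read as a result particular to the members.

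**Figure D1:**
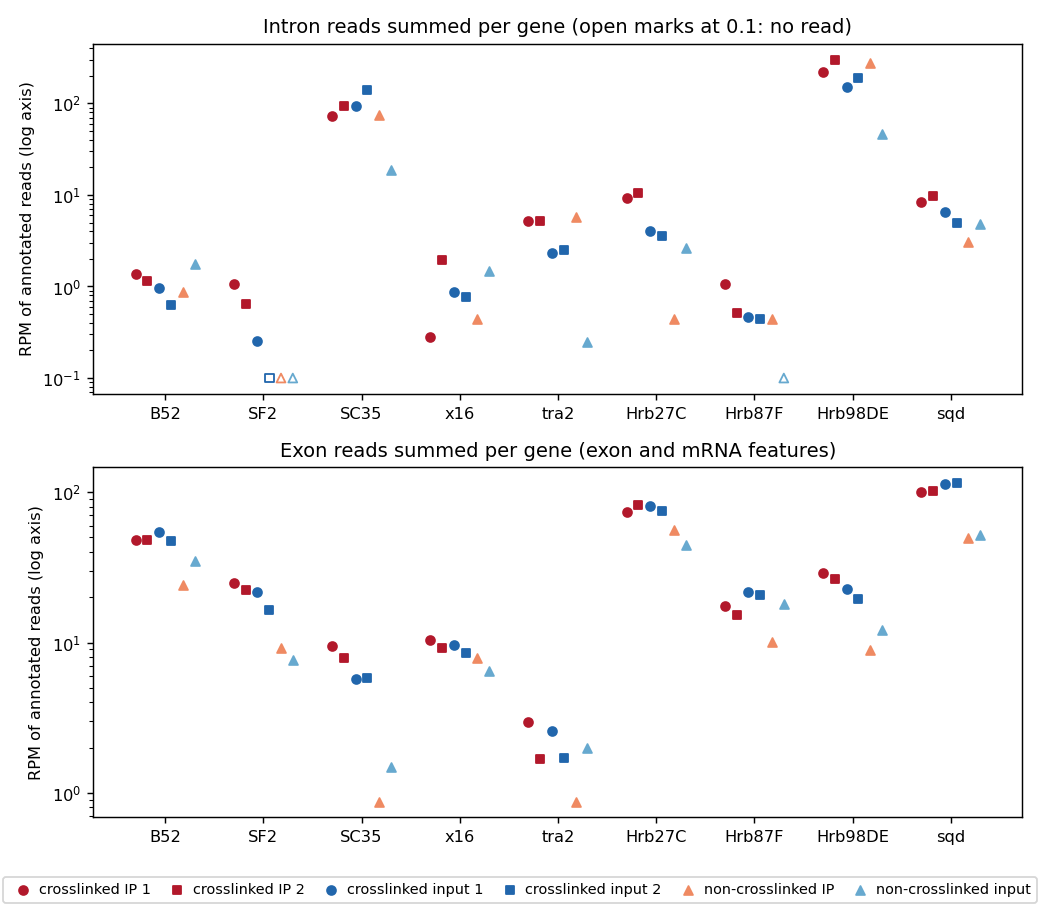
Intron and exon levels of the 9 members in RPM (annotated reads, log axis) in each of the 6 libraries, with 1 point per library, crosslinked IP left of crosslinked input, and open marks where no read was found. Levels are not scaled to length, so points are compared within a gene. Hrb27C introns lie at 9.23 and 10.5 RPM in crosslinked IP against 4.02 and 3.53 RPM in crosslinked input.

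Among the SR proteins, B52 (3R:13661311-13666891, Release 6), a homologue of vertebrate SR proteins, was nearly all exonic. Its exons had 47.8 and 48.0 RPM in crosslinked IP, against 54.2 and 47.3 RPM in crosslinked input. The non-crosslinked IP had 24.3 RPM and the non-crosslinked input 35.04 RPM. The crosslinked groups overlapped, and the log2 ratio of -0.16 ± 0.13 (SE) did not pass (adjusted p = 0.355, edgeR). Its introns had 13 and 9 reads in crosslinked IP, against 15 and 7 in crosslinked input. Without crosslinking there were 2 in the IP and 7 in the input. The crosslinked levels were 1.38 and 1.16 RPM in crosslinked IP, against 0.957 and 0.624 RPM in crosslinked input. The groups did not overlap, but at so few reads the ratio of 0.57 ± 0.42 did not pass (adjusted p = 0.298, edgeR).

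SF2 (3R:16338943-16341988), the fly homologue of human SRSF1, a classical activator of splicing, had few intron reads. These were 10 and 5 in crosslinked IP, against 4 and 0 in crosslinked input, with none in either non-crosslinked library, and the mean of 4.75 was too low for the test. Its exons had 25.0 and 22.5 RPM in crosslinked IP, against 21.8 and 16.5 RPM in crosslinked input. Without crosslinking, the IP had 9.20 RPM and the input 7.70 RPM. Crosslinked IP lay above crosslinked input in every pair of libraries, but the exon ratio of 0.23 ± 0.15 did not pass (adjusted p = 0.238, edgeR). It ranged from 0.07 without crosslinked input 2 to 0.43 without input 1, where it passed (adjusted p = 0.0300, edgeR). The SF2 span overlaps Sulf1 in the annotation, and whether the authors' counting used strand is not given in the sources used here. Reads could therefore be assigned to either gene.

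SC35 (2L:12431075-12434665), the fly homologue of human SRSF2, a splicing activator found in nuclear speckles, had most of its reads in its introns. Its span overlaps eRF3. The introns had 72.2 and 94.7 RPM in crosslinked IP, against 93.3 and 140 RPM in crosslinked input. The non-crosslinked IP had 74.5 RPM and the non-crosslinked input 18.9 RPM. The crosslinked groups overlapped, with the second IP above the first input, although the fitted ratio passed at -0.57 ± 0.20 (adjusted p = 0.0280, edgeR). The call was lost in 7 of 11 alternatives, among them DESeq2 and the fits without crosslinked IP 1 (-0.37), without IP 2 (-0.75) and without crosslinked input 2 (-0.215). Its exons moved the other way. They had 9.51 and 7.94 RPM in crosslinked IP, against 5.71 and 5.84 RPM in crosslinked input, and rose by 0.52 ± 0.17 on the log2 scale (adjusted p = 0.0197, edgeR). The groups did not overlap, and that call was lost with DESeq2, with a mean of at least 1 read (0.38) and without crosslinked IP 1 (0.39) or crosslinked input 1 (0.47). Non-crosslinked exon reads were 2 in the IP and 6 in the input.

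The low counts of x16 introns, the member related to vertebrate SRSF3 and SRSF7, did not settle a direction. They held 2.67 and 15 reads in crosslinked IP, against 13.7 and 8.67 in crosslinked input. Without crosslinking there were 1 in the IP and 6 in the input. The 2 IP libraries lay on either side of both inputs (0.23 ± 0.57, adjusted p = 0.779, edgeR), and the ratio was 1.10 without crosslinked IP 1. Without IP 2 or without input 1 the mean fell under the minimum of 10 reads and no ratio was fitted. The exons, at 10.4 and 9.23 RPM in crosslinked IP against 9.63 and 8.56 RPM in crosslinked input, overlapped too (0.04 ± 0.15, adjusted p = 0.858, edgeR). Non-crosslinked exons had 7.88 RPM in the IP and 6.46 RPM in the input. The x16 span (2L:6914301-6920210) holds the genes nop5 and CG32829, whose reads may be shared with it.

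tra2 (arm 2R), which with tra directs female-specific splicing of dsx in the sex determination pathway, also had more intron than exon reads in crosslinked IP. Its introns had 5.21 and 5.20 RPM in crosslinked IP, against 2.30 and 2.50 RPM in crosslinked input. The non-crosslinked IP had 5.69 RPM (13 reads) and the non-crosslinked input 0.248 RPM (1 read). The groups did not overlap, and the intron sum rose by 1.05 ± 0.22 on the log2 scale (adjusted p = 0.00130, edgeR), which held in all 10 alternatives tried. The exons, with 28 and 13 reads in crosslinked IP against 40.5 and 19 in crosslinked input, overlapped in RPM (0.05 ± 0.32, adjusted p = 0.908, edgeR). Non-crosslinked exon reads were 2 in the IP and 8 in the input. The span overlaps Blos1.

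The largest intron ratio of the 7 tested was that of Hrb27C (2L:6920704-6932057), an hnRNP known for repressing splicing of the P element in somatic cells and for its part in oskar mRNA control. Its introns had 9.23 and 10.5 RPM in crosslinked IP, against 4.02 and 3.53 RPM in crosslinked input. The non-crosslinked IP had 0.438 RPM (1 read), and the non-crosslinked input 2.65 RPM. Crosslinked IP was above crosslinked input in every pair, by 1.28 ± 0.17 on the log2 scale (adjusted p = 1.72e-05, edgeR), and the call held in all 10 alternatives tried. In the non-crosslinked pair the IP was lower. Exons had 74.4 and 82.3 RPM in crosslinked IP, against 81.2 and 74.9 RPM in crosslinked input, and the groups overlapped (-0.07 ± 0.14, adjusted p = 0.704, edgeR). Non-crosslinked exons had 56.4 RPM in the IP and 44.7 RPM in the input.

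Hrb87F (3R:13656846-13660531) and Hrb98DE (3R:28599834-28605777) are fly relatives of hnRNP A/B proteins, which bind nascent transcripts and repress splice sites. Hrb87F exons had 17.6 and 15.3 RPM in crosslinked IP, against 21.6 and 20.6 RPM in crosslinked input. Non-crosslinked exons had 10.1 RPM in the IP and 18.0 RPM in the input. The crosslinked groups did not overlap, and the exon sum fell by 0.44 on the log2 scale (-0.44 ± 0.14, adjusted p = 0.0192, edgeR), a call lost with DESeq2 and limma, with library size alone and without crosslinked IP 2 (-0.31). Its intron reads were 10 and 4 in crosslinked IP against 7.33 and 5 in crosslinked input, too few for the test, with 1 in the non-crosslinked IP and 0 in its input.

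Hrb98DE had far more intron than exon reads. Its introns had 219 and 299 RPM in crosslinked IP, against 152 and 192 RPM in crosslinked input. Without crosslinking, the IP had 277 RPM and the input 46.5 RPM, so the IP was the higher library in every pair. The crosslinked ratio was 0.50 ± 0.18 (adjusted p = 0.0359, edgeR), and the call was lost in 5 of 11 alternatives, among them DESeq2 and the fits without crosslinked IP 2 (0.30) and without crosslinked input 1 (0.33). Exons had 29.0 and 26.4 RPM in crosslinked IP, against 22.7 and 19.4 RPM in crosslinked input. These groups did not overlap, but the ratio of 0.32 ± 0.14 did not pass (adjusted p = 0.0723, edgeR). It passed in 4 of 11 alternatives, among them library size alone (adjusted p = 0.0368), a mean of at least 100 reads (adjusted p = 0.0151) and the fit without crosslinked input 1 (adjusted p = 0.0332), all by edgeR. Non-crosslinked exons had 8.89 RPM in the IP and 12.2 RPM in the input.

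In sqd (3R:13634862-13646304), an hnRNP that localises gurken mRNA in the oocyte, introns rose and exons did not pass. Its introns had 8.35 and 9.63 RPM in crosslinked IP, against 6.56 and 5.00 RPM in crosslinked input. The non-crosslinked IP had 3.07 RPM and the non-crosslinked input 4.87 RPM. The crosslinked groups did not overlap, and introns rose by 0.53 ± 0.17 on the log2 scale (adjusted p = 0.0204, edgeR), a call lost with DESeq2, with a mean of at least 1 read (0.38) and without crosslinked IP 2 (0.45) or crosslinked input 2 (0.39). Exons had 100.2 and 101 RPM in crosslinked IP, against 113 and 115 RPM in crosslinked input. They lay lower in every pair, but the ratio of -0.25 ± 0.15 did not pass (adjusted p = 0.176, edgeR), except with a mean of at least 1 read (adjusted p = 0.0326). Non-crosslinked exons had 49.9 RPM in the IP and 51.9 RPM in the input.

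**Figure D2:**
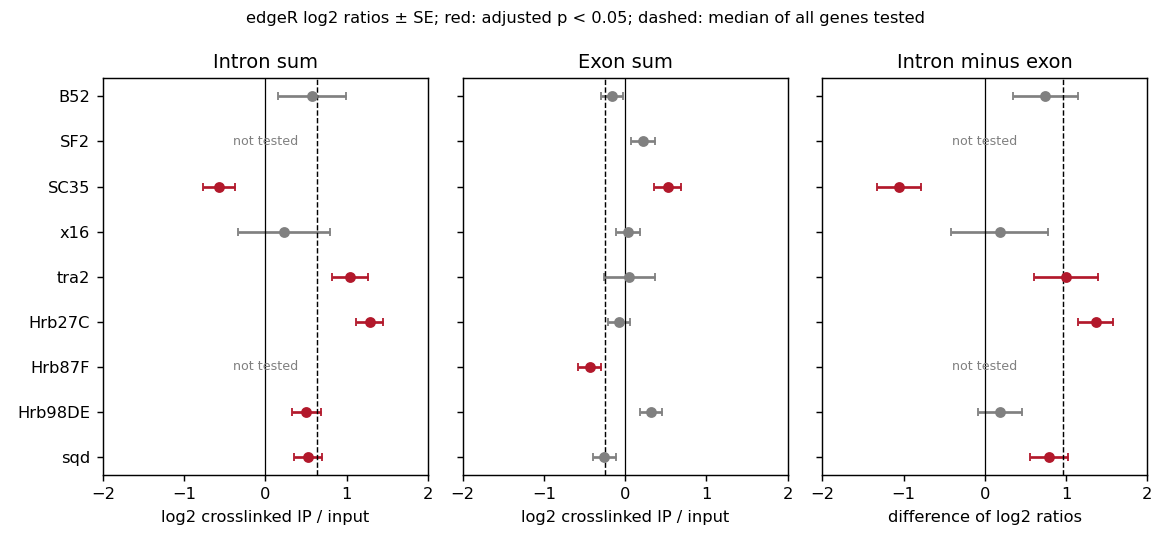
Log2 ratio of crosslinked IP to crosslinked input for introns, exons and the difference between them (intron minus exon) of each member, with standard errors, red where the adjusted p passed the threshold of 0.05 and a dashed line at the median of all genes tested. SF2 and Hrb87F introns had too few reads to be tested, and in SC35 the intron ratio (-0.57) lies below the exon ratio (0.52).

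The share of intron reads within a gene compares introns and exons inside 1 library, so library size cancels. It depends on the lengths of introns and exons, and is read here only between libraries of the same gene. In Hrb27C introns held 11.03% and 11.3% of the reads in crosslinked IP, against 4.71% and 4.50% in crosslinked input. The mean ± SD over 2 libraries was 11.2% ± 0.185 in crosslinked IP, against 4.61% ± 0.154 in crosslinked input. The share was higher in IP in all 4 IP and input pairs of crosslinked libraries for B52, SF2, tra2, Hrb27C, Hrb87F and sqd, in 3 for Hrb98DE, in 2 for x16 and in 0 for SC35. How often this holds over all genes was not counted. Of 1571 genes tested below for the difference between intron and exon ratios, 89.75% had a value above 0. The pair counts are therefore not read as particular to the members. SC35 introns held 88.4% and 92.3% of its reads in crosslinked IP, against 94.2% and 96.0% in crosslinked input. In tra2 the share was 63.6% and 75.6% in crosslinked IP, against 47.1% and 59.6% in crosslinked input. The 95% Wilson intervals, which cover counting error only, were 52.5% to 73.5% and 62.4% to 85.1% in IP against 36.5% to 58.5% and 45.3% to 72.4% in input. In sqd it was 7.69% and 8.70% in crosslinked IP, against 5.49% and 4.18% in crosslinked input. Hrb98DE introns held 88.3% and 91.9% in crosslinked IP, against 87.0% and 90.8% in crosslinked input.

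In 3 members the intron ratio was higher than the exon ratio when the difference within a gene was tested. They were Hrb27C (difference 1.36 ± 0.22 on the log2 scale, adjusted p = 0.000124), sqd (0.79 ± 0.24, adjusted p = 0.00985) and tra2 (1.00 ± 0.39, adjusted p = 0.0387), all by edgeR's quasi-likelihood test. In SC35 introns were lower than exons by 1.05 on the log2 scale (-1.05 ± 0.27, adjusted p = 0.00379, edgeR). B52, x16 and Hrb98DE did not pass, and SF2 and Hrb87F had too few intron reads. Of the 7 tested, 3 were higher and 1 was lower, beside 63.6% higher and 2.23% lower of 1571 genes, with a median of 0.74 over the members and 0.97 over all. SC35 was the gene at rank 25 from the lowest among the 1571. Leaving out crosslinked IP 1 (-0.72) or crosslinked input 2 (-0.79) ended the SC35 call, leaving out IP 2 (0.69) or input 2 (0.61) ended that of sqd, and leaving out IP 2 (0.67) or input 1 (0.56) ended that of tra2, which was lost in 4 of 9 alternatives. The Hrb27C difference held in all 9 alternatives tried.

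**Figure D3:**
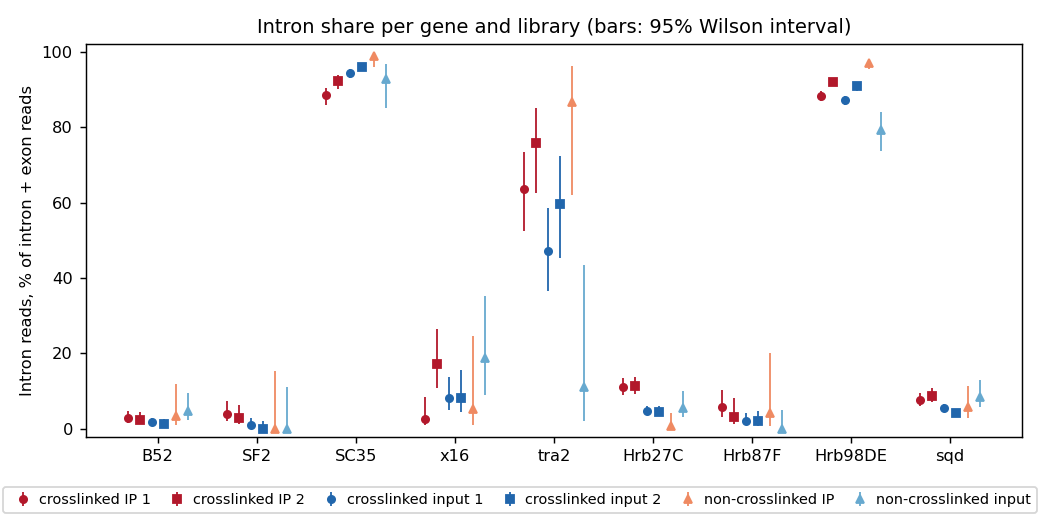
Percent of intron reads among intron and exon reads of each member in the 6 libraries, with 95% Wilson intervals for counting error. SC35 is the member whose share lies lower in both crosslinked IP libraries (88.4% and 92.3%) than in both crosslinked inputs (94.2% and 96.0%).

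Single features showed where within a gene these sums arose. Of 12 member intron features with a mean of at least 10 reads, 5 rose and 7 did not pass (edgeR, adjusted over all features). Among 3795 intron features in the series, 49.9% rose and 2.06% fell. Of 54 exon features, 3 rose and 2 fell, beside 6.05% higher and 27.3% lower of 11128 such features. Some features held identical values and so appear to share reads, among them introns of tra2 (counted among those that rose), Hrb98DE and sqd and exons of Hrb27C. The counts are therefore not of separate measurements. Over intron and exon features together the 10 calls were 8 higher and 2 lower, a balance that turned to 3 higher and 5 lower with a mean of at least 1 read and to 1 higher and 3 lower with at least 100.

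In B52 the sum over all exons covered a segment with a ratio far below it. An exon feature listed for 10 isoforms, numbered 4 among those of that name, had 12 and 16 reads in crosslinked IP, against 84 and 60 in crosslinked input. Its level was 1.28 and 2.06 RPM in crosslinked IP, against 5.36 and 5.35 RPM in crosslinked input, and it fell by 1.69 on the log2 scale (-1.69 ± 0.23, adjusted p = 0.000311, edgeR). The non-crosslinked pair ran the same way, with 1 read in the IP and 20 in the input. SC35-RD had an exon feature that rose, with 2.41 and 2.00 RPM in crosslinked IP against 1.09 and 1.23 RPM in crosslinked input (0.99 ± 0.27, adjusted p = 0.0161, edgeR). In Hrb87F an exon feature fell. It was listed for RA, RC, RD and RE and numbered 2, and had 8.30 and 7.08 RPM in crosslinked IP, against 11.4 and 13.3 RPM in crosslinked input (-0.65 ± 0.17, adjusted p = 0.0124, edgeR).

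The RB and RF isoforms of Hrb98DE shared an exon and an intron feature that both rose. The exon feature had 35 and 27 reads in crosslinked IP, against 16 and 9 in crosslinked input. Without crosslinking there were 1 in the IP and 2 in the input. It rose by 1.96 ± 0.24 on the log2 scale (adjusted p = 0.000197, edgeR). The intron had 23 and 16 reads in crosslinked IP, against 17 and 7.67 in crosslinked input (1.29 ± 0.30, adjusted p = 0.00675, edgeR). An exon feature listed for all 6 Hrb98DE isoforms rose as well, with 16 and 11 reads in crosslinked IP against 13 and 3 in crosslinked input (1.40 ± 0.42, adjusted p = 0.0253, edgeR).

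The bulk of Hrb98DE intron reads came from 3 features. One, shared by all isoforms, had 79.7 and 99.0 RPM in crosslinked IP, against 48.6 and 61.8 RPM in crosslinked input. Without crosslinking, the IP had 142 RPM and the input 21.1 RPM. Its values were whole numbers in 6 of 6 libraries, so its reads do not appear to be divided between annotations, and it rose by 0.70 ± 0.17 on the log2 scale (adjusted p = 0.0108, edgeR). The other 2 held identical values and so shared their reads, and did not pass (0.52, adjusted p = 0.0563, edgeR). In tra2, 2 intron features with identical values carried nearly all intron reads, 23.5 and 19 each in crosslinked IP against 17.5 and 14 in crosslinked input (1.08 ± 0.25, adjusted p = 0.00717, edgeR). Of SC35 intron reads, the single feature shared by all 4 isoforms held 99.85% or more in every library, again as whole numbers. These reads did not pass in the fit over single features (-0.49 ± 0.22, adjusted p = 0.102, edgeR). Hrb27C-RD had 1 intron feature that rose (1.08 ± 0.31, adjusted p = 0.0268, edgeR). The sqd-RA exon feature held 76.2% and 76.8% of sqd exon reads in crosslinked IP, against 81.2% and 82.1% in crosslinked input.

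Small RNAs lie within the spans of SC35, Hrb98DE, tra2 and x16. SC35 holds snoRNA:SC35-a (2L:12432798-12432950) and snoRNA:SC35-b (2L:12433025-12433180), Hrb98DE holds 7 snoRNAs of the Psi28S family, tra2 holds scaRNA:PsiU5-44, and in x16 the snoRNA snoRNA:nop5-x16-a lies in nop5. These were counted as features of their own, and the annotation used here gives no intron positions, so how the intron reads lie relative to them was not tested.

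Both SC35 snoRNAs fell. The intron sum of the gene also fell in the main fit, but its crosslinked groups overlapped and that call was lost in 7 of 11 alternatives. snoRNA:SC35-a had 175 and 246 RPM in crosslinked IP, against 248 and 378 RPM in crosslinked input, and fell by 0.66 on the log2 scale (-0.66 ± 0.21, adjusted p = 0.0194, edgeR). snoRNA:SC35-b had 100.0 and 127 RPM in crosslinked IP, against 231 and 378 RPM in crosslinked input (-1.51 ± 0.22, adjusted p = 3.86e-05, edgeR). In the non-crosslinked pair snoRNA:SC35-a had 100.3 RPM in the IP and 75.1 RPM in the input, and snoRNA:SC35-b had 37.2 RPM in the IP and 45.0 RPM in the input. There were 26.2 and 25.4 SC35 intron reads per 100 reads of its snoRNAs in crosslinked IP, against 19.5 and 18.5 in crosslinked input. The non-crosslinked pair had a wider gap, with 54.1 in the IP and 15.7 in the input. Across the series 39.1% of 233 snoRNA items fell and 32.2% rose.

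In Hrb98DE most snoRNAs fell while the intron sum rose, though the intron call was lost in 5 of 11 alternatives. Of its 7 snoRNAs, 5 fell, 1 rose and 1 did not pass. snoRNA Psi28S-3405a had 37.1 and 43.7 RPM in crosslinked IP, against 434 and 724 RPM in crosslinked input, and fell by 3.93 on the log2 scale (-3.93 ± 0.24, adjusted p = 3.12e-09, edgeR). The non-crosslinked IP had 8.98 RPM and the non-crosslinked input 68.6 RPM. The one that rose, Psi28S-3305b, had low counts (0.95 ± 0.35, adjusted p = 0.0409, edgeR). Copies of this family share reads, so single copies are uncertain. There were 35.4 and 37.7 Hrb98DE intron reads per 100 reads of its snoRNAs in crosslinked IP, against 8.52 and 7.46 in crosslinked input. Without crosslinking the figures were 157 in the IP and 13.6 in the input.

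In tra2, scaRNA:PsiU5-44 had 67.9 and 84.7 RPM in crosslinked IP, against 44.6 and 59.7 RPM in crosslinked input, and rose by 0.47 ± 0.17 on the log2 scale (adjusted p = 0.0359, edgeR). Without crosslinking, the IP had 53.0 RPM and the input 7.95 RPM. There were 7.68 and 6.14 tra2 intron reads per 100 scaRNA reads in crosslinked IP, against 5.15 and 4.19 in crosslinked input. In the non-crosslinked pair there were 10.7 in the IP and 3.13 in the input, the latter from 1 intron read. snoRNA:nop5-x16-a, inside x16, fell by 1.53 on the log2 scale (-1.53 ± 0.18, adjusted p = 3.90e-06, edgeR).

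**Figure D4:**
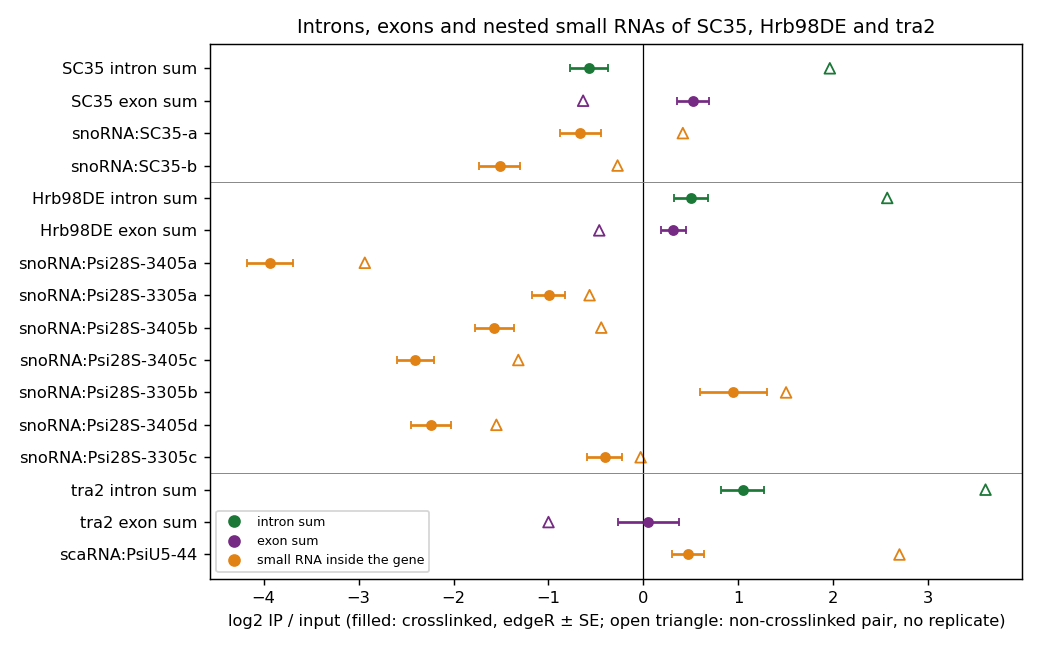
Log2 ratio of IP to input for the intron sum, the exon sum and each small RNA inside SC35, Hrb98DE and tra2. Filled circles with bars are the crosslinked ratio ± SE by edgeR. Open triangles are the single non-crosslinked pair, from levels with a prior count of 2 and no TMM scaling. For Hrb98DE the intron sum lies at 0.50 while Psi28S-3405a lies at -3.93, and for SC35 the intron sum (-0.57) and both snoRNAs (-0.66 and -1.51) lie below 0.

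A test of the intron against the nested small RNA ratio, added after these values were seen, gave 2.20 ± 0.16 for Hrb98DE (adjusted p = 3.52e-07, edgeR) and 0.44 ± 0.17 for SC35 (adjusted p = 0.0365, edgeR). It gave 1.71 ± 0.61 for x16, whose snoRNA lies in nop5 (adjusted p = 0.0239, edgeR) and 0.55 ± 0.27 for tra2 (adjusted p = 0.0830, edgeR). Of 64 genes tested, 64.1% were higher and 9.38% lower, with a median of 1.11. Hrb98DE kept its call in all 7 alternatives, from 2.10 to 2.291. SC35 lost its call in 5 of 7, and x16 in 2 of 4. Of the 1571 genes tested for the intron minus exon difference, 1492 were matched to the annotation by symbol. Among these, 15 of 71 genes with a nested snoRNA or scaRNA passed with a lower intron than exon ratio, against 18 of 1421 others. This description was made after the data were seen. More passed with a higher intron than exon ratio, 29 of the 71 and 918 of the 1421. The median difference was 0.34 in the genes with a nested small RNA and 0.98 in the others.

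Other splicing genes, from lists that carry no independent weight here, moved as follows. Of 12 other SR and SR-related genes, 10 were listed in the files, 4 had tested introns, of which 1 rose, and 9 had tested exons, of which 1 rose and 4 fell. Of 18 other hnRNP and splicing regulator genes, 17 were listed, 11 had tested introns, of which 8 rose, and 17 had tested exons, of which 3 rose and 1 fell. Of 19 core splicing factor genes, 18 were listed, 3 had tested introns, all of which rose, and 17 had tested exons, of which 2 rose and 4 fell. The lists' medians for introns were 0.53, 0.81 and 0.75 beside 0.64 over all genes. Introns passed as higher than exons within the gene in 3 of 4, 6 of 11 and 2 of 3 tested genes of these lists. The genes whose intron share over the 6 libraries was nearest to the median of the members were Vha16-1 (root mean square difference 1.10 percentage points), spoon (1.37) and CG31705 (1.62), among 981 genes compared.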

How the data were processed

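For each library the authors deposited a table of annotated features, with estimated counts in one column and RPM in the next. The estimated counts are fractional, so reads matching several features appear to be divided between them. The deposited RPM was used in the limma alternative for intron and exon sums. It was not used for the levels given here or for the edgeR and DESeq2 tests. The tools bcl2fastq 2.19, STAR 2.5.2b and bedtools 2.29.0 and the builds dm6 and mm10 are named, with no role, per the submitters' processing notes; the annotation and any removal of PCR copies are not given in the sources used here. Features not listed in a library were set to 0. The row of unannotated reads (1.98% to 12.85% of reads) was left out of the totals and tests of counts. For the levels given here, RPM was recomputed over annotated reads.

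Estimated counts were summed per gene over exon plus mRNA and over intron features, rounded, and tested with edgeR 4.0.16 (quasi-likelihood, TMM scaling, R 4.3.3), with 4 crosslinked libraries. Items needed a mean of at least 10 reads. The spread of each item was drawn towards that of all items, with 2 residual and 13.6 prior degrees of freedom (11.9 prior for the intron minus exon difference). The SE was derived from the log2 ratio and its F statistic. P-values of summed items were adjusted by Benjamini-Hochberg over all 8775 items, with a threshold of 0.05. Those of the intron minus exon difference were adjusted over its 1571 genes, and those of single features over all features tested. Rows of intron against nested small RNA were fitted and adjusted together with the intron minus exon rows (11.2 prior degrees of freedom). The difference between intron and exon ratios was tested in 1 model per gene with library as a factor. Non-crosslinked groups have 1 library each and no test. In simulated counts for 8775 items, 89% of 200 items changed 4-fold were recovered with 8 false calls, and for the intron minus exon difference over 1571 genes 92.5% with 9 false calls. The simulation gave all items the same fixed spread, not fitted to these libraries, and no change smaller than 4-fold. It therefore checks the code and does not give the error rate of the calls reported here. DESeq2 1.42.0 and limma 3.58.1 were alternatives. Replicates differed by a chi-square of 7.63 per degree of freedom in crosslinked IP and 10.6 in crosslinked input, so they were counted separately. Spans and small RNAs come from the RefSeq annotation of Release 6, matched by symbol. Figures were drawn with matplotlib 3.10.9.

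The members and gene lists were chosen with earlier results of these data known. All 9 members were named, with the features past the threshold and some of the features of highest mean. The comparison with nested small RNAs and the choice of exon features to name were made after the data were seen. Sequences were not analysed here.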

Additional observations from a re-analysis of the deposited data

Results flagged for a closer look

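Several member results ran one way in all 4 pairs of crosslinked IP and crosslinked input libraries and the other way in the single non-crosslinked pair. They were picked for this pattern, and how often it occurs over all items was not counted. The list is therefore not read as particular to the members. The difference between the crosslinked and the non-crosslinked contrast was not tested, since each non-crosslinked group has 1 library. The non-crosslinked log2 ratios were taken from levels with a prior count of 2 and no TMM scaling, unlike the crosslinked edgeR ratios. The prior count draws ratios of few reads towards 0, so only directions are compared between the contrasts. Log2 ratios of non-crosslinked IP to non-crosslinked input were -0.83 for B52 introns, -2.14 for Hrb27C introns, -0.66 for sqd introns, -0.63 for SC35 exons and -0.46 for Hrb98DE exons, all higher in IP in the crosslinked pairs. For Hrb27C introns the non-crosslinked values were 0.438 RPM in IP and 2.65 RPM in input, and for B52 introns 0.876 RPM in IP and 1.74 RPM in input. Among the small RNAs, snoRNA:SC35-a (0.42) and snoRNA:nop5-x16-a (0.12) were higher in the non-crosslinked IP, while both were lower in IP in the crosslinked pairs. The intron share of B52 was lower by 1.25 percentage points (-1.25) in the non-crosslinked IP than in its input, that of Hrb27C by 4.83 (-4.83) and that of sqd by 2.79 (-2.79), while that of SC35 was higher by 6.15 percentage points. In the crosslinked pairs the shares of B52, Hrb27C and sqd were higher and that of SC35 lower in IP. Most of these non-crosslinked values rest on few reads, with 1 Hrb27C intron read and 2 B52 intron reads in the non-crosslinked IP. SC35 introns, whose crosslinked groups overlapped, had more reads, 170 in the non-crosslinked IP and 76 in its input. Their log2 ratio was 1.97 without crosslinking against -0.57 with it. Introns of tra2 (13 reads in the non-crosslinked IP and 1 in its input) and Hrb98DE were higher in IP in both contrasts. Their ratios were 3.61 and 2.57 without crosslinking, against 1.05 and 0.50 with it, by the unlike measures named above. The non-crosslinked ratios of tra2 and Hrb27C introns each rest on a library with 1 read, under the floor of 3. Their size therefore depends on the prior count.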

How the results depend on the processing

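Across 251 comparisons of 27 member results with an alternative, 195 kept their direction and their side of the threshold, 39 lost the threshold, 6 came to pass it and 11 changed sign. Of 14 member calls, 4 held under every alternative run: Hrb27C introns, the Hrb27C intron minus exon difference, tra2 introns and the Hrb98DE intron against its nested small RNAs. The number of intron sums called over all genes was 1040, and it was 575 with DESeq2, 447 with a mean of at least 100 reads and 543 to 1028 when each library was left out. Exon calls were 1885, against 776 with DESeq2, 900 with a mean of at least 100 reads and 942 to 1809 with a library left out. Calls of the intron minus exon difference were 1034, against 321 with a mean of at least 100 reads, where fewer genes were tested, and 750 to 921 with a library left out. Member features called were 10 (8 higher and 2 lower), against 3 (2 higher and 1 lower) with DESeq2, 4 (1 higher and 3 lower) with a mean of at least 100 reads, 8 (3 higher and 5 lower) with a mean of at least 1 read and 9 to 10 with a library left out. The median member intron share in crosslinked IP, 9.49%, was 5.36% without the intron feature of highest mean. Exon ratios changed sign for x16 with a mean of at least 1 read (-0.11) and for tra2 (-0.0926), with ranges of -0.0465 to 0.14 and -0.45 to 0.40 when a library was left out. For Hrb27C exons the ratio was 0.0036 with library size alone, and -0.12 to 0.009 with a library left out. The intron minus exon difference was -0.0099 for x16 with limma, and -0.10 to 0.48 for Hrb98DE with a library left out. None of these passed the test. With a mean of at least 1 read more exon sums were tested, 9818 against 5867. Ratios far from 0 also lay lower in that setting, such as B52 introns (0.43 against 0.57) and SC35 exons (0.38 against 0.52). The cause of the sign changes was not tested. Taken over all items, replicate numbers showed little pairing of the libraries (correlation of deviations 0.0458 over 8775 items). A correlation over all items cannot decide this for single members, where pairing was not tested. With the replicate number as a block, calls were 1138 for introns, 2079 for exons, 1054 for the difference, 14 for member features and 48 (47 without the block) for intron against nested small RNA, none of the 14 member calls was lost and Hrb98DE exons passed (adjusted p = 0.0445, edgeR). Members below a raised minimum gave no value under it. Depth limits SF2, Hrb87F, x16 and B52 introns most, at 15 reads or fewer in each library.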
